A study of Homo sapiens with 8 samples.

Results

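Calbindin (CALB1), calretinin (CALB2), secretagogin (SCGN), the secreted proteins SMOC1 and SMOC2, and the calmodulin genes CALM2 and CALM3 were followed in Alexander1 cells, an established epithelial line from a human hepatocellular carcinoma. These 7 genes share the EF-hand, a helix-loop-helix fold that binds calcium, and were taken from the 58206 genes of the count table by their symbols. They were selected on the difference in read counts between the groups of this series, so their own values are given below as a description, with no p-value. Standard errors and intervals of these genes describe the spread between libraries and are no evidence of a difference.

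RNA was sequenced from 4 libraries of the parental line, genotype wt (Axin1 -), and 4 libraries labelled Axin1+. According to the labels, the parental Axin1 lacks the part that binds the kinase GSK3, which leaves Wnt signalling constantly active, and the derivative carries full-length Axin1 from a plasmid. The labels give retroviral transfer and selection of clones with hygromycin B for all 8 samples, and do not say how many clones were used. A difference that comes from Axin1 and one that comes from selecting a clone therefore cannot be told apart. Nothing in the labels says whether the 4 libraries of a group came from separate cultures, so the p-values below measure the spread between these libraries, which may be technical.

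Parental libraries held 11232951 to 15263761 counts and those labelled Axin1+ held 12372436 to 26400782. Levels are given in CPM, the usual depth-scaled unit of counts, and 3 counts, the limit that a count of 0 allows, correspond to 0.108 to 0.267 CPM in a single library. AXIN1 itself measured 52.4 ± 3.49 CPM (SD, n = 4) among parental and 45.4 ± 5.13 CPM (SD, n = 4) among Axin1+ libraries, a log2 fold change of -0.21 (SE 0.12, adjusted p = 0.267 in edgeR's quasi-likelihood test). The mRNA level of the restored gene thus did not set the labels apart, and each direction below rests on the labels alone. All 8 hepatocyte markers examined were expressed. Their summed level was 20205 to 23839 CPM in the parental libraries and 16515 to 19605 CPM in the others, most of it SERPINA1. Of the 8, 2 were higher (FGB and TTR) and 1 lower (SERPINA1) at an adjusted p under 0.05. FGB rose from 768 ± 102 to 3175 ± 612 CPM, and SERPINA1 fell from 16130 ± 1188 to 10358 ± 1109 CPM (SD, n = 4 each). On the first principal component Axin1+ replicate 1, at 22.2, lay closer to the parental libraries (-46.7 to -42.6) than the other libraries of its label (48.7 to 56.8). On the second, parental replicate 1, at 61.5, stood apart from the other parental libraries (-30.3 to -9.60), and without it 3523 genes passed the test in place of 2738.

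EF-hand proteins act in 2 main ways. Buffers such as calbindin and calretinin bind calcium in the cytosol and soften its swings. They are best known from neurons, the gut, the distal tubule of the kidney and endocrine cells. Calmodulin is a sensor that changes shape on binding calcium and then switches kinases, phosphatases, pumps and channels. SMOC1 and SMOC2 carry the EF-hands of the SPARC family and work outside the cell, where they bind the matrix and oppose signalling by bone morphogenetic proteins (BMP).

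Of the 7 genes, 5 passed the filter on low counts (CALB1, SMOC1, SCGN, CALM2 and CALM3), and CALB2 and SMOC2 did not. CALB1 and SMOC1 went from almost no reads in the parental libraries to means of 49.0 and 57.4 CPM in those labelled Axin1+, and CALM3 was about 1.54-fold higher. SCGN and CALM2 were spread over the same range in both groups. In 3 of the 5 (CALB1, SMOC1 and CALM3) the groups did not overlap, all of them higher in the libraries labelled Axin1+. Over all 14289 genes tested, 12.7% were separated in this direction and 11.2% in the other, 23.9% in all. These 3 are also among the genes with an adjusted p under 0.05, as are 10.4% of all genes tested in this direction and 8.77% in the other, 19.2% in all, while 33.5% had an unadjusted p under 0.05. CALM3 did not reach that threshold without parental replicate 2 or without Axin1+ replicate 3, whereas CALB1 and SMOC1 reached it in all 15 alternative analyses. CALB1 and SMOC1 passed the filter only through the libraries in which they were high. Since the genes were chosen on this contrast, these counts are no test and nothing is read from them.

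**Figure D1:**
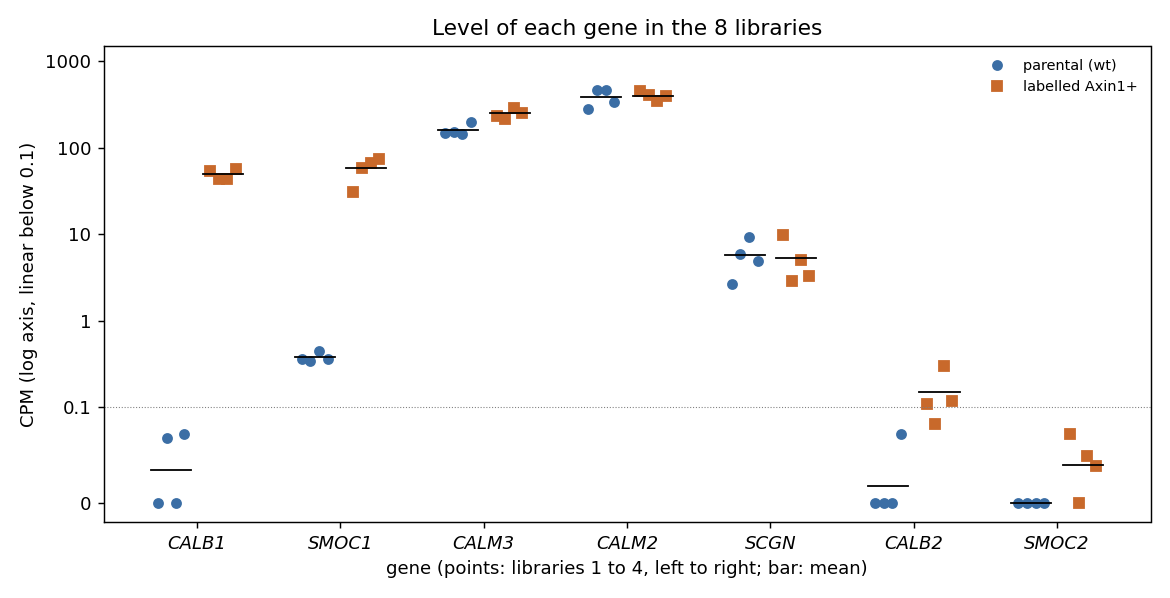
Level of the 7 EF-hand genes in CPM (vertical axis, logarithmic above 0.1 and linear below it) in 4 parental libraries (circles) and 4 libraries labelled Axin1+ (squares), with the mean as a bar. CALB1 is at 0 or 1 count in the parental libraries and between 42.9 and 56.6 CPM in the others, and SMOC1 lies at 0.339 to 0.445 CPM against 30.4 to 73.6 CPM, whereas the groups overlap for CALM2 and SCGN.

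CALB1 (ENSG00000104327, chromosome 8, 90058608 to 90095475 in GRCh38, minus strand), the calcium buffer calbindin, gave 0, 1, 0 and 1 counts in parental replicates 1 to 4. In Axin1+ replicates 1 to 4 it gave 1476, 520, 884 and 1449 counts, which were 52.9, 42.9, 43.6 and 56.6 CPM. Every library labelled Axin1+ was thus far above every parental library, and within the label the level varied little, with an SD of 13.9% of the mean. Summed over the libraries, 4329 counts stood against 2, a ratio of 1290 after scaling to the TMM-adjusted library totals. The exact 95% interval of that ratio ran from 357 to 10657 and covers counting error only. Per length, CALB1 reached 6.86 CPM per kb of exon in the libraries labelled Axin1+, above 60.9% of the tested genes, and 0.00488 CPM per kb in the parental ones. With 1 library left out the ratio lay between 1007 (without parental replicate 1) and 1876 (without parental replicate 4).

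CALB2 (ENSG00000172137, chromosome 16, 71358713 to 71390438, plus strand), which encodes calretinin and is the closest relative of calbindin, was at the limit of detection. It gave 0, 0, 0 and 1 counts in parental replicates 1 to 4 and 3, 1, 6 and 3 counts in Axin1+ replicates 1 to 4. In CPM the groups did not overlap, but narrowly so: the highest parental value was 0.0716 and the lowest value labelled Axin1+ was 0.0826, each from 1 count. The ratio of the sums, 13 counts against 1, was 7.75, with an exact 95% counting interval from 1.16 to 329. In CPM its highest value was 0.296, in Axin1+ replicate 3, so the level stayed far below that of CALB1 in the same libraries even per length (0.0885 against 6.86 CPM per kb).

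SCGN (ENSG00000079689, chromosome 6, 25652201 to 25701783, plus strand), a relative of CALB1 and CALB2 known from pancreatic islets and neuroendocrine cells, was expressed in all libraries. It measured 2.67, 5.89, 9.26 and 4.94 CPM across parental replicates 1 to 4, and 9.83, 2.89, 4.98 and 3.24 CPM across Axin1+ replicates 1 to 4. The groups overlapped over almost their whole range, with a highest value in each of more than 9 CPM and a lowest under 3 CPM. Its log2 fold change was -0.10 (SE 0.44, 95% interval -1.06 to 0.86), which leaves room for changes of about 2-fold in either direction. Single libraries set its sign: it was -0.61 without Axin1+ replicate 1 and 0.22 without parental replicate 3. Among CALB1, CALB2 and SCGN, only SCGN had reads in every parental library.

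SMOC1 (ENSG00000198732, chromosome 14, 69854131 to 70032366, plus strand), a secreted matrix protein that antagonises BMP signalling, had 4 or 5 counts in each parental library. In CPM, parental replicates 1 to 4 measured 0.356, 0.339, 0.445 and 0.358, and Axin1+ replicates 1 to 4 measured 30.4, 58.8, 66.8 and 73.6. The lowest value labelled Axin1+ was many times the highest parental one, and it came from replicate 1, the library nearest to the parental ones in the principal component analysis; what that library's position adds was not tested. The log2 fold change was 7.24 (SE 0.36, 95% interval 6.46 to 8.03), 151-fold with an interval from 87.9-fold to 261-fold. It was 7.45 without that library and 7.10 without Axin1+ replicate 4. Per length SMOC1 stood at 13.1 CPM per kb in the libraries labelled Axin1+, above 75.4% of the tested genes and above CALB1 at 6.86 CPM per kb.

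The 250 bases before the start that RefSeq (GRCh38.p14) gives for SMOC1 are shown because this gene was nearly silent in 1 group and well expressed in the other. The stretch is chr14:69879166-69879415 on the plus strand, and it lies within the gene as drawn in GENCODE, which adds a longer non-coding transcript that starts upstream. Capitals mark matches to GGGCGG or TATAA on either strand.
SMOC1: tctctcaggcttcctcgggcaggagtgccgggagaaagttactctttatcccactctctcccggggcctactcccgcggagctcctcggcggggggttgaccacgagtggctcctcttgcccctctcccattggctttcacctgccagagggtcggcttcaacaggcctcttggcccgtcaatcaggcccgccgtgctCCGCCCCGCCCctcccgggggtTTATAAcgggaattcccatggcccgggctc
The capital run of C and G holds 2 overlapping copies of GGGCGG on the minus strand, the core bound by Sp-type factors, which 42.6% of the 35097 RefSeq windows of this length contain on either strand. The second run holds TATAA on both strands, overlapping itself, and 18.9% of the windows contain it. CTTTGAT and CTTTGTT, short forms of the site bound by TCF and LEF factors, had 0 matches here on either strand and occurred in 6.596% of the windows. The window was 65.6% G and C, against a median of 58.0% over all windows. These matches describe the letters of the window and were not linked to binding or to the difference in level.

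SMOC2 (ENSG00000112562, chromosome 6, 168441151 to 168673445, plus strand), the close relative of SMOC1 and a marker of intestinal stem cells, was at or under the limit of detection in both groups. It had 0 counts in all 4 parental libraries, which allows up to 0.0586 CPM over the group, and 2, 0, 1 and 1 counts in Axin1+ replicates 1 to 4. No fold difference is given at these counts. Reads of the SMOC pair thus came almost entirely from SMOC1. Of the other 6 genes of the SPARC family examined, 2 could be tested, SPARC at 1.18 ± 0.812 against 1.64 ± 0.672 CPM and SPOCK2 at 1.45 ± 0.701 against 1.70 ± 0.21 CPM (SD, n = 4 each, parental against labelled Axin1+), and neither passed the test.

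CALM2 and CALM3 encode the same protein, calmodulin. Their coding sequences are shown to make plain how reads of the genes can be told apart. The first 90 of the 450 coding bases in GENCODE 29 transcripts are given, and capitals mark the 15 positions at which they differ.
CALM2: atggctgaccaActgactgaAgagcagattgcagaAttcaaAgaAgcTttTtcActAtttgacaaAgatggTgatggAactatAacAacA
CALM3: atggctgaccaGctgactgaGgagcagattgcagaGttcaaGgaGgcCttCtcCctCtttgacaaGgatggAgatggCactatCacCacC
Over the whole coding sequence, CALM2 and CALM3 differed at 82 bases (81.8% identity), 79 of them at the last base of a codon. The longest run shared by CALM2 and CALM3 was 17 bases. Of the 4 processed copies of CALM2 named in the table, 2 had any counts, CALM2P2 with 9 in the parental libraries and 14 in the others, and CALM2P3 with 1, against 19905 and 34578 for CALM2. How the counting treated reads that fit several places is not given in the sources used here.

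CALM2 (ENSG00000143933, chromosome 2, 47160082 to 47176601, minus strand) was more abundant than CALM3 in the mean of the parental libraries, also per length (59.7 against 43.9 CPM per kb). It measured 279, 467, 460 and 337 CPM across parental replicates 1 to 4, and 447, 408, 343 and 398 CPM across Axin1+ replicates 1 to 4. The groups overlapped, with the parental libraries holding the highest as well as the lowest value. The log2 fold change was 0.05 (SE 0.18, 95% interval -0.34 to 0.44), with -0.08 when parental replicate 1 was left out and 0.15 when parental replicate 2 was. In the annotation 102 bases of its exons overlap AC073283.3 on the same strand.

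CALM3 (ENSG00000160014, chromosome 19, 46601074 to 46610793, plus strand) measured 149, 152, 143 and 200.3 CPM across parental replicates 1 to 4, and 232, 217, 291 and 253 CPM across Axin1+ replicates 1 to 4. The groups were separate, but parental replicate 4 came close to Axin1+ replicate 2. The log2 fold change was 0.62 (SE 0.15, 95% interval 0.30 to 0.95), 1.54-fold. With 1 library left out it lay between 0.54 (without Axin1+ replicate 3) and 0.74 (without parental replicate 4). In the annotation 103 bases of its exons overlap PPP5D1P and 296 overlap AC093503.2, each on the opposite strand, and the sources used here do not say whether counting used strand. PPP5D1P stood at 0.840 CPM ± 0.346 (SD, n = 4) in the libraries labelled Axin1+.

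The sum of CALM2 and CALM3 came to 428, 619, 603 and 538 CPM across parental replicates 1 to 4, and to 679, 625, 634 and 651 CPM across Axin1+ replicates 1 to 4. Their joint mRNA level was thus nearly even over the libraries labelled Axin1+ (SD 23.8 CPM) and more variable over the parental ones (SD 86.7 CPM), with parental replicate 1 lowest. The groups did not overlap, although Axin1+ replicate 2 lay close to parental replicate 2. Per kb of exon, CALM3 made up 48.6%, 36.5%, 35.4% and 51.2% of the sum in parental replicates 1 to 4. In Axin1+ replicates 1 to 4 it made up 47.7%, 48.4%, 59.9% and 52.8%. These shares overlapped, since parental replicates 1 and 4 reached the level of Axin1+ replicates 1 and 2. The shares depend on the length used, here all annotated exons (6466 bases for CALM2 and 3667 for CALM3). With transcripts of 1302 and 2289 bases, a choice made after seeing the data, CALM3 made up 15% to 25.3% in the parental libraries and 22.8% to 32.5% in the others, below CALM2 in all 8. In CPM the ratio of CALM3 to CALM2 was 0.311 to 0.594 and 0.518 to 0.848.

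**Figure D2:**
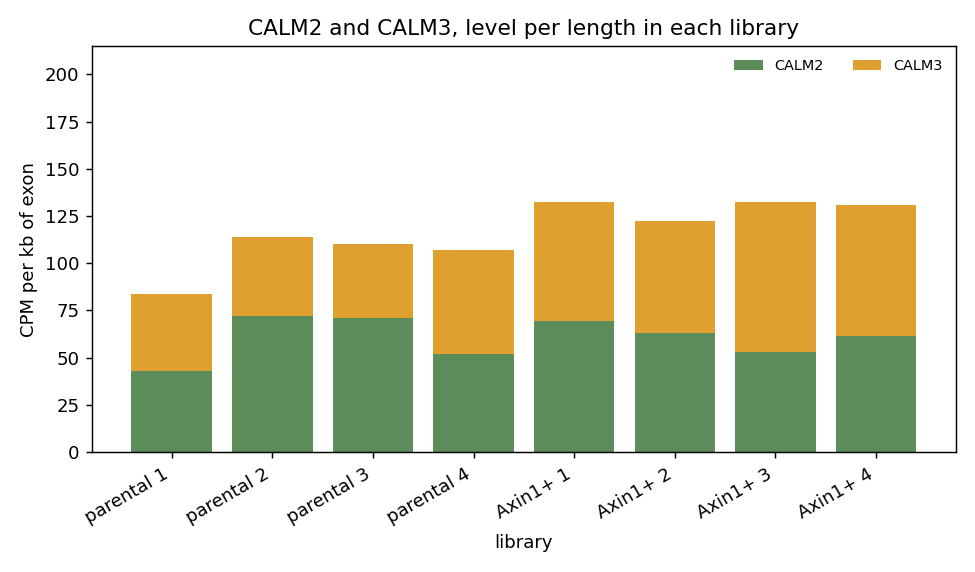
Level of CALM2 and CALM3 in CPM per kb of exon (stacked bars, from 0) in each of the 8 libraries. The sums run from 83.8 to 114 CPM per kb in the parental libraries and from 122 to 132 in those labelled Axin1+, and the CALM3 section is largest in Axin1+ replicate 3.

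Pearson correlation of log2 CPM over the 8 libraries was used to find the tested genes most like each member. The libraries share depth and group, and any gene with well-separated groups scores high, so the values describe patterns only. CALB1 was closest to VMP1 (r = 0.999, n = 8 libraries), NPTX2 (0.996) and SLC6A14 (0.994). VMP1, a membrane protein of autophagy, stood at 125 ± 3.96 and 258 ± 11.1 CPM (SD, n = 4 each). NPTX2 and SLC6A14 had 0 parental counts and were at least 22.5-fold and 82.7-fold higher, against 3 counts over the parental group. Among those closest to SMOC1 were KCNK13 (0.999) and PECAM1 (0.997), the latter at 5.18 CPM in the parental libraries and 48.2 CPM in those labelled Axin1+. Those closest to CALM3 included PPP5C (0.989), a phosphatase gene that is also among its 20 nearest tested genes, and ANKHD1-DT (0.976). SCGN was closest to PSMD10P2 (0.982), CKS1B (0.956) and ETV5 (0.954), and those closest to CALM2 included RAB11FIP1 (0.979) and TMEM165 (0.958). None of these 5 genes named for SCGN and CALM2 passed the test between the groups.

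Genes next to the members on their chromosomes were compared to see whether the differences extended beyond the members. DECR1, 6.52 kb from CALB1, stood at 125 ± 18.9 and 122.8 ± 31.1 CPM (SD, n = 4 each), and its log2 fold change was -0.02 (SE 0.19). TMEM64 on the other side was at 0.54 (SE 0.30), and neither passed the test. Among the 20 nearest tested genes of CALB1 the median log2 fold change was 0.35, with 3 higher and 0 lower past the threshold, and the highest value was 2.13 (MMP16). Around SMOC1, neither SRSF5 (0.19, SE 0.13) nor RPL7AP6, a pseudogene inside the SMOC1 locus (-0.45, SE 0.27), passed the test. The median of the 20 neighbours was 0.20, with 4 higher and 1 lower past the threshold. The largest of these was GALNT16, named after its value was seen, which rose from 0.105 ± 0.136 to 2.59 ± 0.1996 CPM (SD, n = 4 each; log2 fold change 4.41, SE 0.56, edgeR adjusted p = 0.00062). The parental level of GALNT16 rests on 6 counts in all, so the size of its fold is uncertain. Over all tested genes the median was 0.00, and 10.4% were higher and 8.77% lower past the threshold.

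SCGN, which was spread alike in both groups, lay between genes that differed, and its 20 nearest tested genes had a median of 0.40, with 5 higher and 2 lower past the threshold. CARMIL1, a regulator of actin capping 31.7 kb away, rose from 0.785 ± 0.300 to 11.4 ± 4.72 CPM (SD, n = 4 each; log2 fold change 3.86, SE 0.37, edgeR adjusted p = 0.00011). SLC17A4 on the other side fell by 1.23 on the log2 scale (SE 0.39, edgeR adjusted p = 0.04999). It no longer passed in 9 of the 15 alternative analyses, and leaving out any of parental replicates 2, 3 and 4 or Axin1+ replicates 2, 3 and 4 was enough, with edgeR adjusted p from 0.0835 to 0.142. The nearest tested neighbours of CALM2 (TTC7A, BCYRN1) and of CALM3 (PPP5D1P, PRKD2) did not pass the test. The 20 nearest tested genes of CALM3 had a median of 0.20, with 2 higher and 1 lower. PPP5C, which starts 0.254 Mb from the start of CALM3, rose from 97.8 ± 10.7 to 139 ± 15.7 CPM (SD, n = 4 each; log2 fold change 0.51, SE 0.13, edgeR adjusted p = 0.0189). That call was lost without parental replicate 2 or 3 or Axin1+ replicate 3 or 4 (edgeR adjusted p 0.0527 to 0.0716). Farther from CALM3, IGFL2-AS1, named after its value was seen, rose from 0.824 ± 0.177 to 35.0 ± 15.2 CPM (SD, n = 4 each; log2 fold change 5.37, SE 0.34), the highest of the 20 neighbours there. Those of the unexpressed SMOC2 included a transcript without a symbol, ENSG00000224417, which rose from 5.54 ± 1.61 to 11.8 ± 2.54 CPM (edgeR adjusted p = 0.0130), and those of CALB2 (CMTR2, ZNF23) did not pass.

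**Figure D3:**
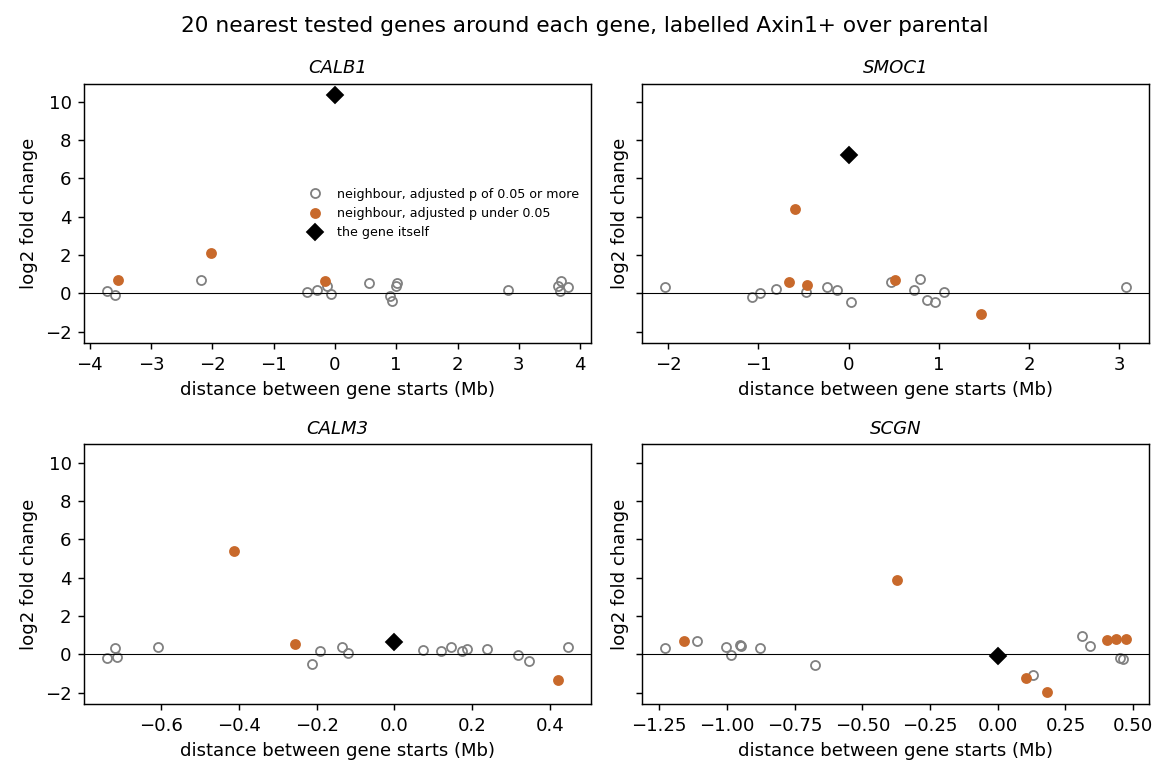
Log2 fold change, labelled Axin1+ over parental (vertical axis), of the 20 nearest tested genes around CALB1, SMOC1, CALM3 and SCGN against the distance between gene starts in Mb. Filled points are neighbours with an adjusted p under 0.05, and diamonds are the genes themselves, for CALB1 the log2 of the count ratio (10.3), and the neighbours of CALB1 have a median of 0.35.

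Relatives of these genes were examined through lists of 80 other EF-hand genes. Of these, 48 could be tested and 25 had at most 3 counts in every library. Untested genes were not all without reads. VSNL1 stood at 5.46 ± 3.47 CPM in the parental libraries and 0.160 ± 0.0714 CPM in those labelled Axin1+. FSTL1 stood at 0 and 0.362 ± 0.127 CPM (SD, n = 4 each). Among the 48, 3 rose and 4 fell at an adjusted p under 0.05, 14.6% against 19.2% of all genes tested, and the median log2 fold change was -0.09 against 0.00. CHP1, a calcineurin-like cofactor of sodium-proton exchangers, rose from 274 ± 25.7 to 427 ± 17.6 CPM (SD, n = 4 each; log2 fold change 0.64, SE 0.12, edgeR adjusted p = 0.0045). Its relative TESC fell from 291 ± 141 to 86.4 ± 30.2 CPM (log2 fold change -1.75, SE 0.33, edgeR adjusted p = 0.0049). Parental replicate 1 was highest of its group for TESC, at 494 CPM against 179.6 to 278 CPM, and without it the log2 fold change was -1.37. EFHD2, an actin-binding EF-hand protein, fell from 49.2 ± 6.46 to 32.4 ± 4.82 CPM (edgeR adjusted p = 0.0181, and 0.0623 without Axin1+ replicate 4).

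The other 4 calls among these relatives were less stable, each lost when any of several single libraries was left out. RHOT1, which couples mitochondria to motor proteins, rose from 17.8 ± 3.11 to 29.1 ± 7.47 CPM (SD, n = 4 each, edgeR adjusted p = 0.0296). That call was lost without parental replicate 2 or 4 or Axin1+ replicate 3 or 4, with edgeR adjusted p from 0.0578 to 0.0893. HPCAL1, a neuronal calcium sensor, fell from 27.7 ± 6.55 to 16.3 ± 4.37 CPM (edgeR adjusted p = 0.0327), lost without parental replicate 2 or Axin1+ replicate 2, 3 or 4 (0.0766 to 0.103). STIM1, the calcium sensor of the endoplasmic reticulum, rose from 93.4 ± 10.7 to 122 ± 9.37 CPM (edgeR adjusted p = 0.0436). PPP3R1, the regulatory subunit of calcineurin, fell from 60.4 ± 5.61 to 43.9 ± 7.54 CPM (edgeR adjusted p = 0.0452). The calls for STIM1 and PPP3R1 were lost without any of parental replicates 2, 3 and 4 or Axin1+ replicates 2, 3 and 4, with edgeR adjusted p from 0.0574 to 0.135, and with the replicate number as a block (0.105 and 0.0908). Of the 7 penta-EF-hand genes tested 0 passed the test, and the same was true of the 5 genes tested on the calmodulin-like list. The number of EF-hand genes called was 13 without parental replicate 1, 3 without parental replicate 2 or Axin1+ replicate 4, and 4 without Axin1+ replicate 3. PVALB, the parvalbumin gene, had 0 counts in all libraries.

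Calmodulin acts through the proteins it binds, and of 46 genes listed as such targets or their regulators 29 could be tested. Of these 3 rose and 0 fell, 10.3% against 19.2% of all genes tested, and the list median was 0.21 on the log2 scale. IQGAP2, a scaffold of the actin cytoskeleton found in liver, rose from 2.78 ± 1.45 to 106 ± 56.0 CPM (SD, n = 4 each; log2 fold change 5.22, SE 0.55, edgeR adjusted p = 0.00022). RCAN1, a feedback inhibitor of calcineurin, rose from 43.6 ± 3.87 to 72.1 ± 9.32 CPM (edgeR adjusted p = 0.0039). DAPK2, a calmodulin-dependent kinase linked to cell death, rose from 1.03 ± 0.369 to 2.16 ± 0.449 CPM (edgeR adjusted p = 0.0455), a call lost without any of parental replicates 2, 3 and 4 or Axin1+ replicates 2, 3 and 4 (edgeR adjusted p 0.0689 to 0.135) and with the replicate number as a block (0.0982). Without parental replicate 1 the list held 5 calls.

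The channels, pumps and exchangers that move calcium across membranes formed a list of 35 genes, 21 of them tested, of which 3 rose and 2 fell, 23.8% against 19.2% of all genes tested. ATP2B4, a plasma membrane calcium pump that calmodulin activates, rose from 0.669 ± 0.463 to 7.02 ± 0.992 CPM (SD, n = 4 each; log2 fold change 3.41, SE 0.38, edgeR adjusted p = 0.00029). Its relative ATP2B1 was much more abundant, at 120.1 ± 9.13 and 117 ± 5.93 CPM, and did not pass the test. ORAI1, the pore of the store-operated channel that STIM1 opens, fell from 58.4 ± 4.58 to 29.2 ± 3.63 CPM (log2 fold change -0.999, SE 0.13, edgeR adjusted p = 0.0007).

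Of the remaining calls, ORAI2 fell from 39.7 ± 18.3 to 21.0 ± 2.50 CPM (SD, n = 4 each, edgeR adjusted p = 0.0370), and SLC8B1, a mitochondrial sodium-calcium exchanger, rose from 55.0 ± 3.32 to 75.4 ± 7.96 CPM (edgeR adjusted p = 0.0214). For ORAI2 parental replicate 1 was highest, at 65.1 CPM against 23.5 to 40.4 CPM, and without it the log2 fold change was -0.57 in place of -0.92. TMCO1, a calcium channel of the endoplasmic reticulum, rose from 114 ± 10.8 to 145 ± 4.57 CPM (edgeR adjusted p = 0.0486). ORAI2 lost its call without parental replicate 3 or any library labelled Axin1+ (edgeR adjusted p 0.0541 to 0.104), SLC8B1 without parental replicate 2 or 3 or Axin1+ replicate 3 (0.0546 to 0.0691), and TMCO1 without any single library except parental replicate 1 (0.0510 to 0.132). The list then held 2 or 3 calls without parental replicate 2 or 3 or Axin1+ replicate 2, 3 or 4, and 2 with the replicate number as a block. TRPV5 and TRPV6, the channels beside which calbindins carry calcium in kidney and gut, had 0 counts in all libraries.

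Because CALB1 is a known target of vitamin D in the kidney, 11 genes of the vitamin D pathway were examined, and 8 could be tested. VDR, the receptor, rose from 0.413 ± 0.395 to 1.78 ± 0.473 CPM (SD, n = 4 each; log2 fold change 2.07, SE 0.50, edgeR adjusted p = 0.0172), a call lost without parental replicate 2 (0.0605) or Axin1+ replicate 4 (0.0570). Without parental replicate 4, which at 1.00 CPM stood above the other parental libraries (0.178 to 0.267 CPM), its log2 fold change was 3.02. Those other parental libraries held at most 3 counts each, the limit that a count of 0 allows, so the size of that fold is uncertain. GC, the carrier of vitamin D in plasma, fell from 173 ± 85.5 to 6.92 ± 2.75 CPM (log2 fold change -4.64, SE 0.48, edgeR adjusted p = 0.00018). Parental replicate 1 was lowest of its group for GC, at 49.1 CPM against 184 to 239 CPM, and without it the log2 fold change was -4.95. CYP27B1, which makes the active hormone, fell from 10.05 ± 1.84 to 4.30 ± 0.824 CPM (edgeR adjusted p = 0.0037), and CYP27A1 fell from 24.2 ± 5.65 to 9.06 ± 4.67 CPM (edgeR adjusted p = 0.0132). CYP24A1, which breaks the hormone down and is its most used readout, did not pass, at 71.3 ± 14.5 and 53.5 ± 19.4 CPM. S100G, the other vitamin D-dependent calbindin, had at most 1 count in any library. In all, 1 gene rose and 3 fell, 50.0% of those tested against 19.2% of all genes.

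SMOC1 acts on BMP signalling, and of 31 genes of that pathway 22 could be tested, of which 2 rose and 2 fell, 18.2% against 19.2% of all genes tested. The ligand BMP2 rose from 3.14 ± 1.41 to 7.64 ± 1.35 CPM and the ligand BMP6 fell from 53.9 ± 2.48 to 28.4 ± 7.43 CPM (SD, n = 4 each, edgeR adjusted p = 0.0228 and 0.0073). SMAD5, which carries the signal to the nucleus, rose from 19.8 ± 4.20 to 34.3 ± 7.62 CPM (edgeR adjusted p = 0.0196). FST, the secreted inhibitor follistatin, fell from 359 ± 72.9 to 76.6 ± 34.6 CPM (log2 fold change -2.23, SE 0.28, edgeR adjusted p = 0.00052). The target genes ID1, ID2, ID3 and ID4 did not pass the test. Their log2 fold changes were -0.23 (SE 0.18), -0.46 (SE 0.26), -0.32 (SE 0.25) and 0.20 (SE 0.39). The call for BMP2 was lost without parental replicate 2 or 3 or Axin1+ replicate 2, 3 or 4 (edgeR adjusted p 0.0518 to 0.0637), and that for SMAD5 without parental replicate 4 (0.0511), without Axin1+ replicate 4 (0.0655) and with the replicate number as a block (0.0539). Without Axin1+ replicate 4 the pathway held 2 calls.

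**Figure D4:**
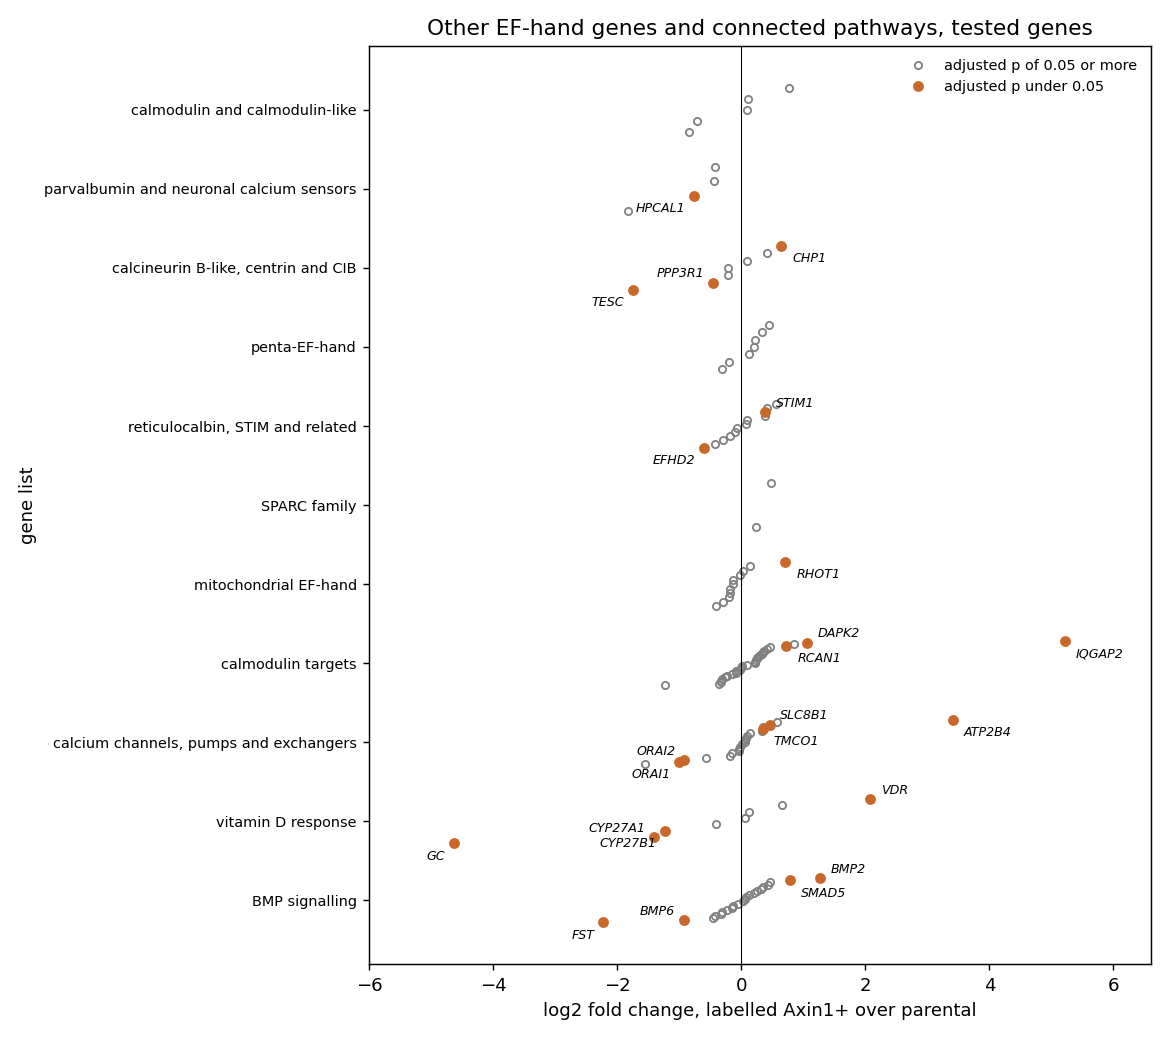
Log2 fold change, labelled Axin1+ over parental (horizontal axis), of every tested gene of 7 EF-hand lists, calmodulin targets, calcium transport, the vitamin D pathway and BMP signalling (rows). Filled points have an adjusted p under 0.05 and are named, and they lie on both sides of 0, from GC at -4.64 to IQGAP2 at 5.22.

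Markers of the cell types in which calbindin is usually found were also counted. Of 6 distal tubule markers, PVALB and UMOD had 0 counts in every library, and the summed level was 3.12 to 7.31 CPM in the parental libraries and 0.0390 to 1.04 CPM in those labelled Axin1+. The 8 neuron markers summed to 87.2 to 98.5 CPM and 65.7 to 77.4 CPM, with 3 lower and 0 higher past the threshold, and the neuron-defining RBFOX3 had at most 5 counts. The 6 neuroendocrine markers summed to 33.9 to 45.7 and 32.2 to 40.6 CPM, with 1 lower, and INSM1 and NEUROD1 had at most 1 count. Mesothelial markers, relevant because mesothelium makes calretinin, summed to 0.0891 to 0.979 and 1.21 to 3.69 CPM, with 1 of 5 higher (UPK3B). Fibroblast markers, relevant as SMOC1 is often stromal, summed to 2.71 to 3.22 and 1.23 to 4.63 CPM, with 1 of 7 lower. Only 1 of the distal tubule markers could be tested (SLC12A3, lower), and of the neuron markers SYP, at 20.8 and 29.6 CPM, and SNAP25, at 17.1 and 20.1 CPM, had higher means in the libraries labelled Axin1+ and did not pass the test. The part of any other cell type in the level of CALB1 was not tested.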

How the data were processed

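The authors deposited raw counts per gene for 8 libraries, whole numbers without normalization. The submitters' processing notes name bcl2fastq, fastp 0.23.1, STAR 2.7.4 and the build GRCh38, whereas how reads were counted, against which gene models and with or without strand is not given in the sources used here. All 8 columns were matched to samples by the names in the labels, and 0 columns had no sample. Symbols were found for 57495 of 58206 identifiers, and positions and exon lengths come from GENCODE 29 (57943 found).

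The test was run in edgeR 4.0.16 (R 4.3.3): filterByExpr (minimum count 10, minimum total 15), TMM scaling, and the quasi-likelihood test of the 2 groups without covariates, adjusted by Benjamini-Hochberg over 14289 genes with a threshold of 0.05. Log2 CPM used a prior count of 2. Each standard error is the size of the log2 change divided by the root of its F statistic, and intervals are at 95%. The procedure was tested on simulated counts. Ratios for nearly absent genes use summed counts with an exact (Clopper-Pearson) interval for counting error only. Gene levels per length divide by the exon union.

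The members and the gene lists were chosen with earlier results of these data known. Named genes are the members, up to 3 called genes per list and direction, the nearest tested neighbours and the 3 most correlated genes, some of which are not reported here; MMP16, GALNT16 and IGFL2-AS1, list genes given to show a pathway's state, and markers were added after their values were seen. RefSeq promoter windows were found for SCGN, SMOC1, SMOC2 and CALM3. Alternatives were DESeq2 1.42.0 size factors and Wald test, library totals only, limma-voom (limma 3.58.1), no filter, a mean of 1 CPM, the replicate number as a block, and leaving out each library.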

Additional observations from a re-analysis of the deposited data

Results flagged for a closer look

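In groups of 4 libraries, the library farthest from the others was compared with the range of the group, in 124 combinations of a gene and a label. Chance flags about 1 in 20 of these, and 8 stood out. Of the EF-hand genes described above, CALM3 stood at 200.3 CPM in parental replicate 4 against 143 to 152 CPM in the other parental libraries. CALB2 stood at 0.296 CPM in Axin1+ replicate 3 against 0.0826 to 0.117 CPM, which is a matter of 6 counts against 1 to 3. VDR stood at 1.00 CPM in parental replicate 4 against 0.178 to 0.267 CPM, the latter from at most 3 counts each. RHOT1 stood at 40.2 CPM in Axin1+ replicate 4 against 24.2 to 26.5 CPM. ANKHD1-DT, similar in pattern to CALM3, reached 1.43 CPM in Axin1+ replicate 3 against 0.820 to 0.861 CPM. Among neighbouring genes, PRKD2 stood at 54.0 CPM in parental replicate 1 against 39.8 to 40.6 CPM, TTC7A at 29.9 CPM in Axin1+ replicate 1 against 17.0 to 18.7 CPM, and WDR27 at 22.1 CPM in Axin1+ replicate 2 against 16.2 to 16.8 CPM.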

How the results depend on the processing

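The log2 fold change of SMOC1 ranged from 7.05 to 7.45 and that of CALM3 from 0.54 to 0.74 over 15 alternatives, those of SCGN (-0.61 to 0.22) and CALM2 (-0.08 to 0.15) changed sign, and the count ratio of CALB1 ranged from 1007 to 1876 over the 10 alternatives that apply to it. With 1 library left out, the genes called numbered 1394 to 3523 over the whole table (2738 with all libraries), 3 to 13 among EF-hand genes (7), 2 to 5 among calmodulin targets (3), 2 to 6 among calcium transporters (5), 3 to 5 in the vitamin D pathway (4) and 2 to 6 in BMP signalling (4). The DESeq2 Wald test called 12 EF-hand genes. With the replicate number as a block, 2 calcium transporters were called, and no other of these counts moved by over 1.5 times. Same-numbered libraries deviated from their group means with correlations of -0.06, 0.007, -0.03 and 0.23, so the numbers were not taken as pairs. Parental replicate 1 correlated most with Axin1+ replicate 2 (0.45). For the other named genes over these settings, 723 values kept their side of the threshold, 81 calls were lost and 2 were gained, with 0 changes of direction among calls. Depth limits CALB2 and SMOC2, which rest on 6 counts or fewer in each library.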
